A study of Mus musculus with 6 samples.

Results

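The genes described here are 42 genes of mitosis and cytokinesis, the steps in which a cell separates its copied chromosomes and then divides. They were chosen by name, and 41 of them were read by a probe set that the platform's annotation gives to a single gene, among 18193 genes measured. Cyclin B1 (Ccnb1) had no such probe set and was not analysed here. The cells were SVI cells, mouse podocytes of a conditionally immortalized line. In the kidney, podocytes wrap the capillaries of the glomerulus and filter the blood. All 6 samples were differentiated at 38 °C in RPMI medium with 10% FBS. In the stretched group (n = 3) the cells then underwent cyclic biaxial stretch for 3 days at 0.5 Hz, with up to 5% linear strain, and the unstretched group (n = 3) carried no strain. Total RNA was measured on Affymetrix arrays, and each value is a log2 expression value made with RMA. The series speaks of 3 independent batches without saying which array belongs to which, so the spread between arrays may be partly technical. As an average over a culture, a value cannot separate the share of dividing cells from the RNA per cell.

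Entry into mitosis is driven by cyclin-dependent kinase 1 bound to A- and B-type cyclins, helped by the Aurora and Polo kinases. Chromosomes attach to the spindle through kinetochores, the spindle checkpoint delays their separation until all are attached, and the anaphase-promoting complex then triggers it. Most of these genes are transcribed in a wave before mitosis by the MuvB complex with B-Myb and FoxM1, acting through CHR elements, while nearby CCAAT boxes bind NF-Y. Mature podocytes in the kidney are largely quiescent. Conditionally immortalized lines grow at a lower temperature through a heat-sensitive large T antigen, and a shift to a higher temperature is used to make them stop dividing and differentiate.

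Of the 41 genes, 6 rose in stretched podocytes, by small amounts, 0 fell and 35 did not pass. Those that passed (limma, Benjamini-Hochberg adjusted p under 0.05 over all genes) were the kinesins Kif4, Kif2c and Kif11, the spindle assembly factor Tpx2, the kinetochore gene Nuf2 and the centrosome kinase gene Nek2. That is 14.6% of the 41, while over all genes 7.98% rose and 6.76% fell, 14.7% in all. The log2 change was above 0 in 33 of 41 genes, against 46.4% of all genes tested, and its median was 0.17, against -0.02. In 23 of the 41 all stretched arrays lay above all unstretched arrays, as they did in 16.0% of all genes. In none did they all lie below, as they did in 3019 of the 18193 genes. No gene was left out for a low value. These probe sets were bright, with a median at percentile 87.3 of gene means. A separate fit took only the 9097 genes at or above the median gene, with p adjusted over those. There 17.1% of genes rose, against 27.5% of the 40 mitosis genes (11 genes). The 6 rises of the main fit were modest: the largest was 1.48-fold and the smallest 1.23-fold.

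These counts moved with the scaling and with single arrays. Called rises numbered 3 of 41 (Kif4, Kif2c and Tpx2) when the arrays were quantile normalized again or fitted with cyclic loess, where the median change was 0.087 and 0.099, and 11 when arrays were centred on their medians. The 3 rises are 7.32% of the 41, while over all genes 6.32% rose under repeated quantile normalization and 6.55% under cyclic loess, so that the share lay near the background. Over all genes, quantile normalization again turned 1452 higher and 1229 lower calls into 1149 and 1544. With centred arrays the 11 rises were 26.8%, against 9.16% of all genes. Without stretched replicate 1 or stretched replicate 2, 3 of the 41 rose (7.32%), against 4.79% and 5.97% of all genes. RNA quality was read from the beta-actin and Gapdh controls (mean ± SD, n = 3 each). The beta-actin 3' probe set exceeded the 5' one by 1.57 ± 0.03 log2 units in unstretched cells and by 1.30 ± 0.05 with stretch. The two-sided exact permutation test gave p = 0.1, the lowest possible with 3 against 3. For Gapdh the values were 0.25 ± 0.07 and 0.16 ± 0.10 (same exact permutation test, p = 0.4), and the arrays of the groups overlapped. The part of RNA quality in the results was not tested. The mean over the 41 genes was 9.18, 9.14 and 9.14 on the unstretched arrays and 9.35, 9.34 and 9.27 on the stretched arrays. Stretched replicate 3 had the lowest mean of its group, with 6 of 41 genes above their group mean there, against 29 on each of the other two stretched arrays. In each of the 9 pairings of a stretched with an unstretched array, between 26 and 37 of the 41 genes were higher on the stretched array.

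The labelled cell type was checked against markers. Actn4, Cd2ap, Kirrel and Synpo, genes of the podocyte foot process and its actin, were read at percentiles 99.4, 95.7, 86.9 and 75.9 of gene means, and Podxl, Plce1 and the transcription factor Wt1 at 71.9, 64.0 and 59.7. Clic5 and Ptpro were dimmer, at 29.1 and 20.2. Nephrin (Nphs1), the defining protein of the slit diaphragm, was at percentile 38.6. The mean of 10 podocyte markers was 7.59 ± 0.08 in unstretched and 7.45 ± 0.04 (SD, n = 3 each) in stretched cells. Clic5 and Synpo were lower past the threshold, and 0 were higher past it. The log2 change was above 0 in 3 of the 10. In 2 markers all stretched arrays lay above all unstretched arrays, and in 2 they all lay below. Markers of other cells ranged from dim to bright. Of 7 endothelial markers 0 passed, with Pecam1 and Cdh5 at percentiles 11.8 and 6.43 and Ehd3 at 70.3, where its log2 change was 0.25 without overlap, and array means of the list were 4.43 to 4.57 in unstretched and 4.44 to 4.55 in stretched cells. Of 8 macrophage and leukocyte markers 2 fell, Cd68 and Csf1r, at percentiles 40.99 and 80.87, and 0 rose. Ptprc, which marks all leukocytes, was at percentile 18.2 and did not pass, and array means of that list were 5.32 to 5.43 in unstretched and 5.10 to 5.17 in stretched cells. Of 6 proximal tubule markers 2 rose, Aqp1 and Cubn, at percentiles 81.7 and 35.8. Array means of that list were 6.09 to 6.23 in unstretched and 6.59 to 6.69 in stretched cells. Its mean log2 change was 0.47, but its median was 0.12 and its largest 2.1. Of 6 mesangial markers 1 rose (Pdgfrb, at percentile 80.8), with array means of 5.51 to 5.65 and 5.64 to 5.74, and of 6 fibroblast markers 0 passed, with 4.36 to 4.52 and 4.42 to 4.56. Over all genes 7.98% rose and 6.76% fell. The part of these markers in the mitosis values was not tested.

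The spindle motors and assembly factors held most of the called genes, with 4 of 7 higher and a median log2 change of 0.39. Kif4 is a chromokinesin that binds chromosome arms and shapes the central spindle. It read 7.98, 7.99 and 8.03 on the unstretched arrays and 8.65, 8.60 and 8.44 on the stretched arrays. The groups were far apart relative to their spread, and the rise was 0.56 (SE 0.09, 95% interval 0.37 to 0.75, limma adjusted p = 0.00191). Kif2c, a kinesin that takes microtubules apart at centromeres, read 8.668, 8.584 and 8.489 unstretched and 9.051, 9.023 and 8.999 stretched. It rose by 0.44 (SE 0.08, adjusted p = 0.00565), with no overlap between groups. Tpx2, which activates Aurora A and helps microtubules form around chromosomes, read 8.35, 8.28 and 8.20 unstretched and 8.66, 8.69 and 8.65 stretched. It rose by 0.39 (SE 0.08, adjusted p = 0.00946), and the stretched arrays lay close together. Kif11, the motor that pushes the spindle poles apart, read 8.99, 9.13 and 9.38 unstretched and 9.65, 9.50 and 9.54 stretched, so that 1 unstretched array came close to the stretched ones. Its rise was 0.40 (SE 0.11, adjusted p = 0.0310).

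The other three of this role did not pass. Nusap1, which bundles spindle microtubules, had a log2 change of 0.24 (SE 0.09, adjusted p = 0.101) without overlap between groups. Hmmr, a spindle protein also known as a hyaluronan receptor, had -0.02 (95% interval -0.21 to 0.18), and Kif20b, a kinesin that acts late in cytokinesis, had -0.12 (95% interval -0.37 to 0.13). Both overlapped between groups. Under the 16 alternatives tried, Kif4 and Kif2c passed in all 16 and Tpx2 in 15, all but the average of its probe sets (adjusted p = 0.123). Kif11 passed in 8: the call ended without unstretched replicates 1 (adjusted p = 0.0981) or 2 (0.0862), without any 1 of stretched replicates 1, 2 and 3 (0.120, 0.0596 and 0.0813), with quantile normalization again (0.0702), cyclic loess (0.0603) and averaged probe sets (0.0665).

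**Figure D1:**
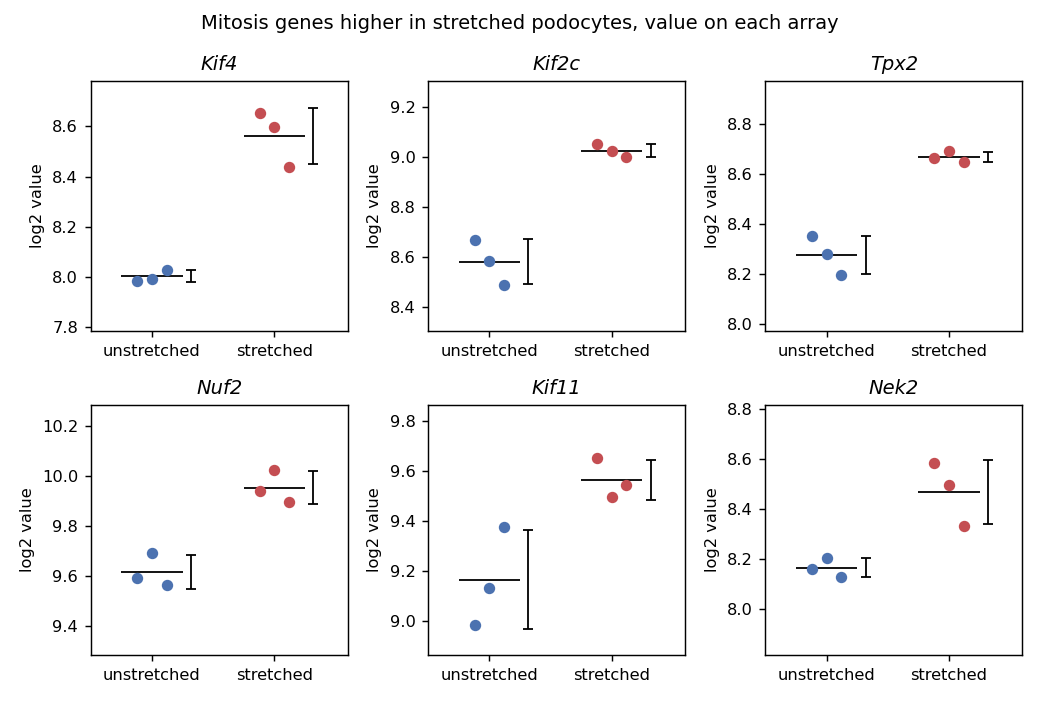
Log2 value on each array (points, in the order replicate 1, 2 and 3) of the 6 mitosis genes that rose, with the group mean (line) and SD (bar), n = 3 per group; each panel spans 1 log2 unit. In each gene the 3 stretched arrays lie above the 3 unstretched arrays, closest for Nek2 and Kif11.

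At the kinetochore, 1 of 6 genes rose and the median was 0.11. Nuf2, a subunit of the Ndc80 complex that grips microtubules, read 9.59, 9.69 and 9.56 unstretched and 9.94, 10.02 and 9.89 stretched. The groups did not overlap, and the rise was 0.34 (SE 0.08, adjusted p = 0.0220). Its partners in the complex did not pass: the log2 change was 0.29 for Spc25 (adjusted p = 0.0580) and 0.10 for Ndc80 (adjusted p = 0.550). Spc25 read 8.72, 8.56 and 8.72 unstretched and 8.91, 8.88 and 9.08 stretched. Here stretched replicate 3, low for most of these genes, was the highest array. Cenpa, the histone variant that marks centromeres, had a change of 0.13, while Cenpf and the kinesin Cenpe, both large proteins of the outer kinetochore, had -0.02 and -0.07. The Nuf2 call ended without unstretched replicates 1 (adjusted p = 0.0582) or 3 (0.0534), without stretched replicates 1 (0.0700) or 2 (0.0894), under repeated quantile normalization (0.0513) and under cyclic loess (0.0595).

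Among the mitotic kinases and the chromosomal passenger complex all 8 log2 changes were above 0, with a median of 0.21, and 1 passed. Nek2, a kinase that loosens the link between centrosomes, read 8.16, 8.21 and 8.13 unstretched and 8.58, 8.50 and 8.33 stretched. Its rise was 0.30 (SE 0.09, adjusted p = 0.0463), near the threshold. The Nek2 call ended without any 1 of unstretched replicates 1, 2 and 3 (adjusted p = 0.0965, 0.0790 and 0.0932), without stretched replicates 1 (0.180) or 2 (0.134), with quantile normalization again (0.151), cyclic loess (0.0970), averaged probe sets (0.308), the most variable probe set (0.413) and every probe set tested (0.0647). Incenp, the scaffold of the passenger complex, had the largest change of those just outside it, 0.32 (SE 0.10, adjusted p = 0.0551), with 9.66, 9.55 and 9.36 unstretched and 9.86, 9.93 and 9.75 stretched. The other passenger subunits had smaller values: survivin (Birc5) 0.27, the kinase Aurkb 0.23 and borealin (Cdca8) 0.15. None of these passed, and none overlapped between groups. Plk1, the Polo kinase of mitotic entry and exit, had a log2 change of 0.18 (95% interval -0.04 to 0.40), Aurka, the Aurora kinase of the spindle poles, 0.13, and Ttk, the kinase that starts the checkpoint, 0.10. Their groups overlapped.

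The 4 spindle checkpoint genes had log2 changes of 0.11 to 0.29, and 0 passed. Bub1b, an inhibitor of the anaphase-promoting complex, read 8.68, 8.63 and 8.83 unstretched and 9.01, 9.05 and 8.94 stretched, with a change of 0.29 (SE 0.09, adjusted p = 0.0506). Bub1, a checkpoint kinase of the kinetochore, also had 0.29 (SE 0.09, adjusted p = 0.0579), with 8.80, 8.64 and 8.87 against 9.02, 9.03 and 9.12. In both genes every stretched array was above every unstretched one. Bub3, which carries Bub1 and Bub1b to kinetochores, had 0.17, also without overlap. Mad2l1, the Mad2 protein that holds Cdc20 inactive, had 0.11, and its groups overlapped.

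The genes of the mitotic entry switch had the lowest median, 0.03, and 0 of 6 passed. Cdk1, the kinase itself, had the narrowest spread of the 41 within the stretched group: 12.20, 12.16 and 12.21 unstretched and 12.30, 12.31 and 12.29 stretched. The groups did not overlap, yet the log2 change was 0.11 (95% interval -0.06 to 0.28, adjusted p = 0.403). The cyclins Ccna2 and Ccnb2 had -0.03 (95% interval -0.21 to 0.15) and 0.03 (95% interval -0.18 to 0.25). The phosphatases that switch Cdk1 on, Cdc25b and Cdc25c, had -0.13 and 0.03 and were the least bright of the 41, Cdc25b lying just under the median gene. Foxm1, the transcription factor of many of these genes, had 0.19 (95% interval -0.03 to 0.41). Only Cdk1 was without overlap among these 6.

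Among genes of anaphase, 0 of 4 passed. Separase (Espl1), which cuts cohesin, had a log2 change of 0.22, and Ube2c, the ubiquitin-conjugating enzyme of the anaphase-promoting complex, had 0.20. Securin (Pttg1), the separase inhibitor, had 0.10. Cdc20, the activator of the complex, had -0.11 (95% interval -0.32 to 0.11), with 10.33, 10.13 and 10.40 unstretched and 10.19, 10.25 and 10.10 stretched. Its groups overlapped, in contrast to the other three.

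Neither chromosome gene used as a proliferation marker passed. Mki67, the Ki-67 antigen that coats mitotic chromosomes, read 9.93, 10.10 and 10.07 unstretched and 10.09, 10.20 and 10.13 stretched. The groups overlapped, and the log2 change was 0.11 (95% interval -0.08 to 0.30, adjusted p = 0.467). Top2a, the topoisomerase that untangles chromosomes, read 11.28, 11.34 and 11.31 unstretched and 11.51, 11.52 and 11.49 stretched. The change of 0.20 (SE 0.08, adjusted p = 0.131) came without overlap and did not pass.

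**Figure D2:**
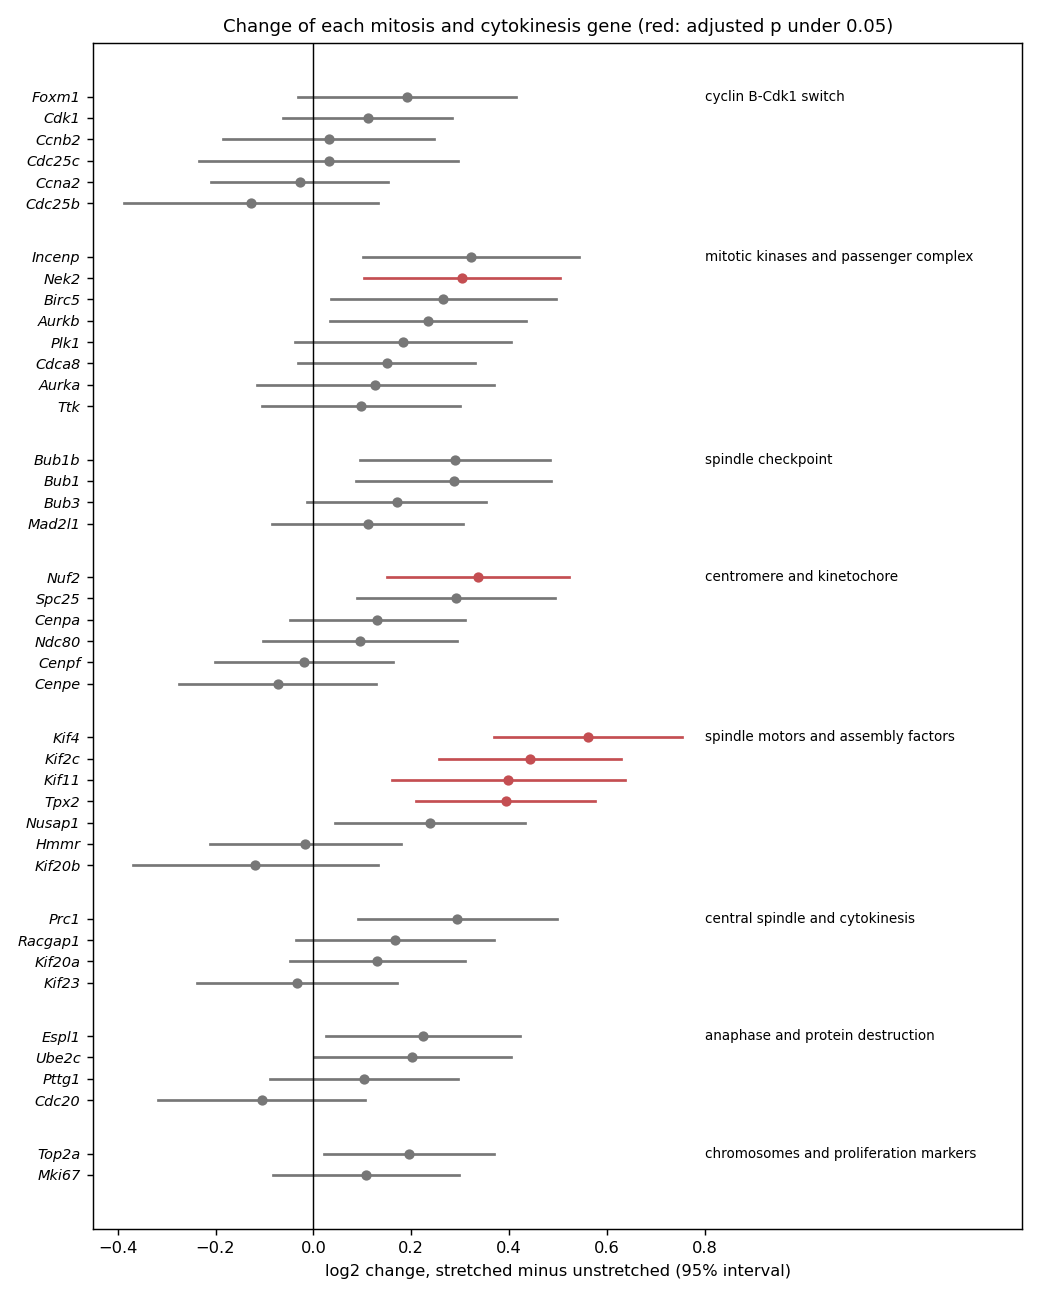
Log2 change of each of the 41 mitosis and cytokinesis genes (stretched minus unstretched, point) with its 95% interval from limma (line), grouped by role, red where the adjusted p was under 0.05. The 6 red genes lie between 0.30 and 0.56, and 8 genes lie below 0, each with an interval that includes 0.

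**Figure D3:**
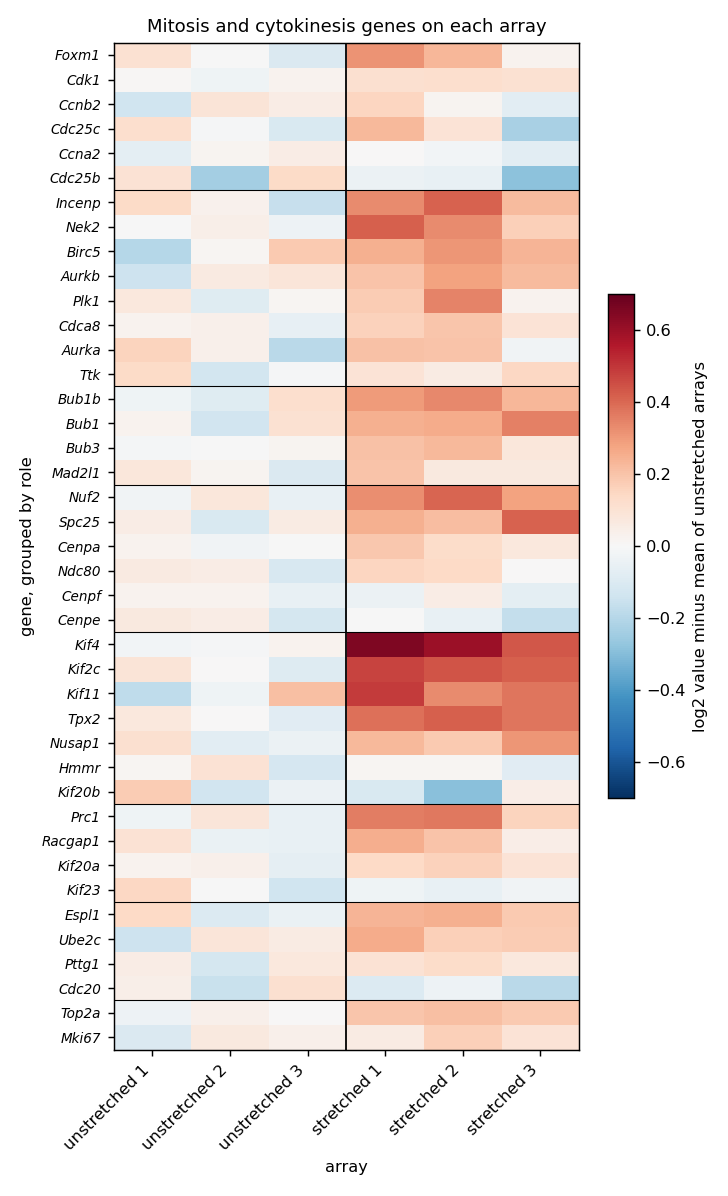
Log2 value of each gene on each array minus its mean over the 3 unstretched arrays (colour, red higher), genes in rows by role and arrays in columns. Most rows are red on the stretched arrays, paler on stretched replicate 3.

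The central spindle and cytokinesis genes depended on which probe set was read. By the brightest probe set 0 of 4 passed: Prc1, which bundles the microtubules of the central spindle, had a log2 change of 0.29 (adjusted p = 0.0566), Racgap1 had 0.17, and the kinesins Kif20a and Kif23 had 0.13 and -0.03. Racgap1 and Kif23 together form the centralspindlin complex. When every probe set was tested (45037 in all), a dimmer one of Prc1 rose by 0.81 (adjusted p = 9.21e-04), with 8.98, 8.70 and 8.94 unstretched and 9.71, 9.73 and 9.60 stretched. A dimmer one of Kif23 rose by 0.76 (adjusted p = 0.00289), from 6.73, 6.76 and 6.44 to 7.25, 7.41 and 7.56. A second one of Racgap1 rose by 0.47 (adjusted p = 0.00819), from 8.66, 8.68 and 8.50 to 9.10, 9.12 and 9.03. None of these probe sets overlapped between groups.

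The same held for other genes outside cytokinesis. Of the 57 probe sets of these genes that were not the brightest, 9 rose and 0 fell. Over all 98 probe sets of these genes 14.3% rose, against 6.47% of all 45037 probe sets. Unlike the 98, those 45037 include 9160 not listed for a gene and 932 with several gene symbols. A dimmer one of Aurkb rose by 0.79 (adjusted p = 7.07e-04), from 7.06, 7.11 and 6.98 to 7.91, 7.71 and 7.90, against 0.23 by the brighter one. For Foxm1 a dimmer one rose by 0.48 (adjusted p = 0.0139), for Bub1 by 0.52 (0.0397) and for Cenpe by 0.74 (0.0318). The Cenpe values were 5.64, 5.68 and 5.82 unstretched and 6.19, 6.18 and 6.98 stretched, so stretched replicate 3 stood apart from the others. Both further probe sets of Kif2c that passed rose as well, by 0.53 and 0.33. The next brightest ones of Kif11, Tpx2 and Nek2 did not pass, with 0.17 (adjusted p = 0.306), 0.21 (0.2945) and 0.25 (0.260). No other remaining probe set of those genes passed, and a dim one of Nek2 had -0.10 (0.565). In all, 12 of 41 genes (29.3%) had a probe set that rose when every probe set was tested, against 11.0% of all genes. Of the 41, 0 had one that fell. A gene with more probe sets had more chances to be counted: 98 read the 41 genes, and 34945 read all 18193 genes. The part of this in the shares was not tested. The genes with dimmer probe sets named here were singled out after their values were seen. Why the probe sets of a gene differed was not tested. Probe sets can read different transcript ends. Of the dimmer ones that rose, only that of Aurkb carries a suffix for shared probes (_s or _x). Among the called genes, the probe sets read for Kif2c (_x) and Nek2 (_s) carry one, as do those of several uncalled genes.

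**Figure D4:**
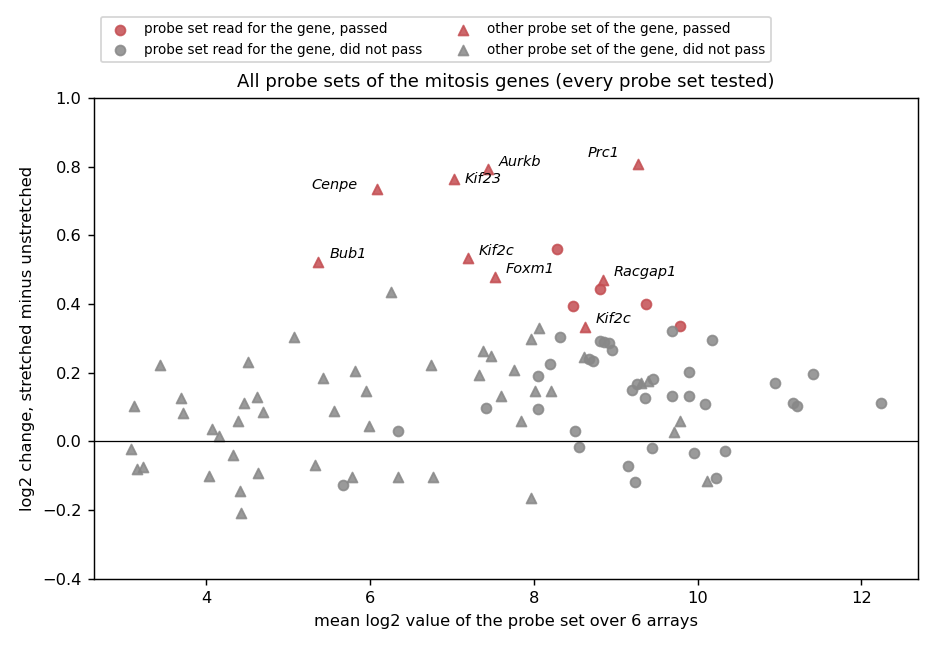
Log2 change (stretched minus unstretched, vertical axis) of all 98 probe sets of the 41 genes against their mean log2 value over 6 arrays (horizontal axis); circles are the brightest probe set of a gene, triangles the others, red where the adjusted p over 45037 probe sets was under 0.05. The 9 named red triangles lie between 0.33 and 0.81, and Aurkb, Prc1, Kif23 and Cenpe lie above every circle.

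The promoters of these genes are shown because many share the sequence elements of the mitotic gene wave, whether or not the gene rose. RefSeq windows from 250 bases before to 50 after the start site (GRCm38.p6) were found for 35 of the 42 genes. Printed here are 150 bases before to 30 after for the 4 called genes of largest statistic with a window, Kif4, Kif2c, Nuf2 and Kif11, and for Hmmr and Cenpf, whose changes were the nearest to 0. Capitals mark a CHR (TTTGAA or TTCGAA) or a CCAAT box (CCAAT), read on either strand, so that TTCAAA and ATTGG are the same elements on the other strand.

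Kif4 (chrX:100625915-100626094, + strand): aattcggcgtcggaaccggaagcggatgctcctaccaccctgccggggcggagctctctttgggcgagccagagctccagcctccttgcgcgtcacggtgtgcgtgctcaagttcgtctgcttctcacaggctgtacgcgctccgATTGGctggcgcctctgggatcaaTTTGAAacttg
Kif2c (chr4:117178743-117178922, - strand): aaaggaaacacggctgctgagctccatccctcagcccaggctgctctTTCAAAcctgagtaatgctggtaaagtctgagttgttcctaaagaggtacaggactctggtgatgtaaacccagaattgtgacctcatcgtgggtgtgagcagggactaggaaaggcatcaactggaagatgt
Nuf2 (chr1:169531435-169531614, - strand): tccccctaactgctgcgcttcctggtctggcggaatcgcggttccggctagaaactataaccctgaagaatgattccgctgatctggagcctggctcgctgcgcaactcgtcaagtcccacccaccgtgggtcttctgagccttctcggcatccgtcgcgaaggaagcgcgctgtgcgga
Kif11 (chr19:37376232-37376411, + strand): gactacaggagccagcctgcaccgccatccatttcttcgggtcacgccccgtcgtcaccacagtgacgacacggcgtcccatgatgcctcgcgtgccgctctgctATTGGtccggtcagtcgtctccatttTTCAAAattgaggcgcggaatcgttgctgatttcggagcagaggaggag
Hmmr (chr11:40733408-40733587, - strand): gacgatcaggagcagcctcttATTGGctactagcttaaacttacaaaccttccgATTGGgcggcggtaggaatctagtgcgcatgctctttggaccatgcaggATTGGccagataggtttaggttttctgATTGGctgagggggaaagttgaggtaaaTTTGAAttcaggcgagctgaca
Cenpf (chr1:189688057-189688236, - strand): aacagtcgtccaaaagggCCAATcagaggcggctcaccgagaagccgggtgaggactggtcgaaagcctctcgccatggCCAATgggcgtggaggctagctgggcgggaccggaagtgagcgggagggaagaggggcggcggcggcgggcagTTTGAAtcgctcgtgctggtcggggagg

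Kif4 and Kif11, which rose, have an ATTGG (from -5 and -45, counted from the start site at +1) followed by a CHR (from +20 and -19). Hmmr and Cenpf, which did not pass, also have CCAAT boxes followed by a CHR (from +9 and +3). The Nuf2 window has neither element, and the Kif2c window has 1 CHR match at -103, away from the start site. Over the 35 genes with a window, 77.1% had a CHR, against 21.7% of 27025 RefSeq genes, and 77.1% had a CCAAT box, against 41.1%. Both were present in 68.6%, against 8.61%. An E2F-type element (TTCCCGC or TTGGCGC, either strand, of which TTGG can overlap an ATTGG) was present in 8.57%, against 7.79%. Genes with several windows counted once if any window held the element. Within the mitosis genes a CHR did not mark those that rose: the median log2 change was 0.15 in the 27 measured genes with one, of which 3 rose, and 0.24 in the 7 without, of which 2 rose. These are matches of letters, not sites shown to be bound.

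Genes of the same processes outside the 41 held rises and no falls. Over 6 lists of other mitosis genes, 25 of 124 rose and 0 fell, with a median log2 change of 0.17. That is 20.2% higher, while over all genes 7.98% rose and 6.76% fell. By list the share that rose was 14.3% in other cytokinesis, 25.8% in other kinetochore and centromere, and 20.7% in other spindle and centrosome genes. Ect2, which centralspindlin brings to the division plane, rose by 1.05 (SE 0.10, adjusted p = 9.17e-05), from 8.92, 8.83 and 8.95 to 10.08, 9.79 and 9.97. Of the 14 other cytokinesis genes measured it was 1 of 2 that rose, with Shcbp1, a partner of centralspindlin (0.42). Of 31 other kinetochore and centromere genes 8 rose (median 0.22), led by Mis18a, which helps load Cenpa (0.49), Ska3, which strengthens the kinetochore's hold on microtubules (0.90), and Cenph (0.43). Of 29 other spindle and centrosome genes 6 rose (median 0.07), led by Depdc1a (0.83), the centriole kinase Plk4 (0.67) and the centriole scaffold Sass6 (0.67). The Ect2 rise was larger than that of any of the 98 probe sets of the 41 genes. Over the 6 lists, quantile normalization again gave 19 rises and 2 falls, and cyclic loess 20 and 2. Under these settings 6.32% and 6.55% of all genes rose. Without stretched replicate 1 the 8 kinetochore rises became 4. The 2 cytokinesis rises became 1 without unstretched replicate 1, stretched replicate 1 or stretched replicate 3. They became 1 with 1 fall under quantile normalization again. Of all genes 6.55% rose without unstretched replicate 1, 4.79% without stretched replicate 1 and 5.4% without stretched replicate 3.

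Of 18 condensin and cohesin genes 4 rose: the condensin subunit Ncapg2 (0.56), the cohesin subunits Stag1 (0.59) and Rad21 (0.37), and the cohesin release factor Wapl (0.35). Of 17 mitotic entry regulators 3 rose: the Cdk-binding subunit Cks1b (0.60), the kinase Mastl, which restrains the phosphatase opposing Cdk1 (0.55), and the histone H3 kinase Haspin (0.50). Of 15 subunits and regulators of the anaphase-promoting complex 2 rose, Cdc26 (0.56) and Cdc27 (0.40). In the transcriptional control list 4 of 18 rose. They were the MuvB subunits Lin9 (0.74, SE 0.09, adjusted p = 4.11e-04) and Lin54 (0.70), the histone-binding subunit Rbbp4 (0.43) and the S-phase activator E2f1 (0.29). The MuvB subunits Lin37 (-0.10) and Lin52 (-0.19) and B-Myb (Mybl2, -0.02) did not pass, and are named after their values were seen. Lin9 read 6.33, 6.29 and 6.31 unstretched and 7.08, 6.92 and 7.17 stretched, with wide separation. In the order given, 22.2%, 17.6%, 13.3% and 22.2% of these lists rose, against 7.98% of all genes. The 4 condensin and cohesin rises became 2 without unstretched replicate 2, stretched replicate 1 or stretched replicate 3, or with quantile normalization again or cyclic loess, and the 4 of transcriptional control became 2 without any 1 stretched array and 1 with averaged probe sets. The 2 of the anaphase-promoting complex became 1 without stretched replicate 1 or with averaged probe sets, and the median of that list was -0.01 with cyclic loess. The 3 of mitotic entry became 5 with arrays centred on their medians, where 9.16% of all genes rose. They became 7 with dim genes left out (17.1% of all genes), with averaged probe sets (7.63%) or with a trended, robust prior (9.37%). With the most variable probe set they became 8 (10.6% of all genes). In that list 1 fell with quantile normalization again, with cyclic loess and with the trended, robust prior. With 1 array left out, 4.79% to 7.97% of all genes rose. Repeated quantile normalization gave 6.32% and cyclic loess 6.55%.

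DNA replication genes, which act in the S phase before mitosis, held 13 that rose and 1 that fell among 43 (30.2% higher, against 7.98% of all genes, median 0.11). The licensing factor Cdc6 rose by 1.20 (SE 0.11, adjusted p = 9.97e-05), the single-strand binding subunit Rpa2 by 0.59 and the dUTP hydrolase Dut by 0.57. The gene that fell was Chaf1b, a subunit of the chromatin assembly factor, by 0.44, named after its value was seen. Among 13 CDK inhibitors, D cyclins and their kinases, the inhibitors Cdkn1b, Cdkn2d and Cdkn2b rose by 0.80, 0.61 and 0.60, and cyclin D1 (Ccnd1) fell by 0.96 on the log2 scale (SE 0.20, adjusted p = 0.00830). Ccnd1 read 8.10, 7.95 and 7.96 unstretched and 6.61, 6.91 and 7.60 stretched. The spread was wide in the stretched group, without overlap. Of the 13 genes 23.1% rose and 7.69% fell, against 7.98% and 6.76% of all genes. The median of the replication list was 0.024 under repeated quantile normalization and 0.044 under cyclic loess, with 10 rises and 1 fall in each. The 13 rises became 6 without stretched replicate 1 or stretched replicate 3, and 8 without unstretched replicate 1 or unstretched replicate 2. Of all genes 4.79% and 5.4% rose without those stretched replicates, and 6.55% and 5.77% without those unstretched ones. Repeated quantile normalization gave 6.32% and cyclic loess 6.55%. Whether these lists differ from the 41 genes was not tested.

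**Figure D5:**
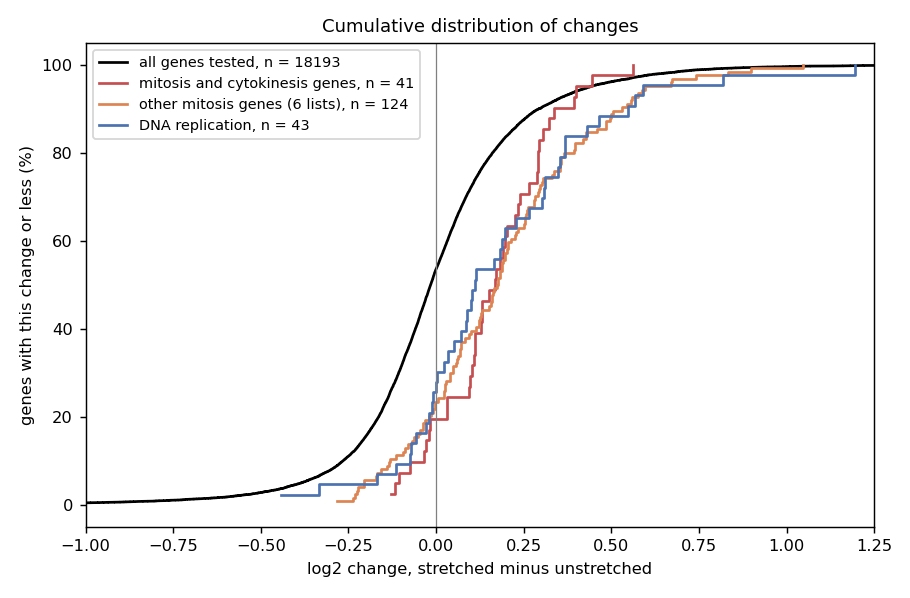
Share of genes (%) with a given log2 change (stretched minus unstretched) or less, for the 41 mitosis and cytokinesis genes, 124 other mitosis genes, 43 DNA replication genes and all 18193 genes tested. The mitosis lines lie to the right of the line of all genes over most of the range, with medians of 0.17 and 0.17 against -0.02.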

How the data were processed

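The authors deposited 1 log2 value per probe set and array, made with RMA per the submitters' processing notes. The sources used here give neither RMA's version and options nor a genome build. Values ran from 2.67 to 13.9, as log2 intensities can. No scanner file was used, which leaves each probe set's background unknown, and 3 arrays per group limit the precision. Of 45101 probe sets, 64 controls were left out, and 34945 others had 1 gene symbol, 932 several, and 9160 were not listed. Of those with 1 symbol, 34741 matched RefSeq (GRCm38) and 0 symbols changed. The probe set with the highest mean over 6 arrays stood for each gene. Groups came from the sample titles. limma 3.58.1 (lmFit and eBayes, R 4.3.3, no covariates) compared 3 stretched with 3 unstretched arrays, with Benjamini-Hochberg adjustment over 18193 genes, and values with an SE are log2 changes of that fit. Steps were tested on simulated data.

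The 42 genes, other lists and marker lists were chosen with earlier results of these data known. All 42 could be named, and of each other list the called genes by moderated statistic, up to 3, or all where 5 or fewer passed. Alternatives were the replicate number as a block, each array left out, rescaled arrays, dim genes left out, a different choice of probe set and another prior.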

Additional observations from a re-analysis of the deposited data

How the results depend on the processing

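The number of the 41 genes called higher was 6. It became 10 with a fixed replicate block and 11 with a random replicate block, 11 with arrays centred on their medians or dim genes left out, and 12 with the most variable probe set or with a trended, robust prior. It became 12 with any probe set of a gene counted, an alternative chosen after seeing the data. It became 3 with quantile normalization again or cyclic loess, and ranged from 3 to 7 with 1 array left out. The number called lower was 0 in each of these. The share of all genes that rose moved as well, from 7.98% in the main fit. It was 9.25% with the fixed block, 9.64% with the random block and 9.16% with centred arrays. With dim genes left out it was 17.1%, with the most variable probe set 10.6% and with the trended, robust prior 9.37%. With any probe set counted it was 11%. Repeated quantile normalization gave 6.32%, cyclic loess 6.55%, and leaving 1 array out 4.79% to 7.97%. The median log2 change, 0.17, became 0.087 with quantile normalization again, 0.099 with cyclic loess and 0.22 with the most variable probe set, and ranged from 0.13 to 0.20 with 1 array left out.

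Over all genes, 2681 calls became 4942 of 45037 probe sets with every probe set tested, and ranged from 1661 (without stretched replicate 1) to 2639 with 1 array left out. Without stretched replicate 3 they numbered 1750. Cenpe and Kif23 changed sign and passed with averaged probe sets (0.33 and 0.27) and with the most variable one (0.74 and 0.76). The probe sets of these genes differed. Of 655 values of single genes under alternatives, 39 newly passed with the same sign, beside those 4 of Cenpe and Kif23 with the other sign, 25 no longer passed, and 25 changed sign without passing. The replicate numbers were not taken as pairs: deviations from group means of same-numbered arrays correlated across genes at 0.02, 0.15 and 0.29, and not every array correlated best with its own number. The block moved the calls over all genes to 3102 (fixed) and 3283 (random).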
